A study of Homo sapiens with 12 samples.

Results

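The genes described here are the heat shock proteins, the J-domain proteins (DNAJ) that hand clients to them, the FKBP prolyl isomerases and the folding enzymes of the endoplasmic reticulum (ER). They were chosen by symbol alone: HSPA, HSPB, HSPD, HSPE, HSPH and HSP90 genes without endings of P plus digits, DNAJA, DNAJB and DNAJC genes, PDIA genes, FKBP genes, and HYOU1, CALR and CANX. The rule found 92 of the 45320 genes in the count tables, and no measured value entered it. Other HSP70 genes of the ER and HSP90 genes of the cytosol are not analysed here, so family counts and sums cover only these members. RefSeq lists 11 of the 92 as pseudogenes. Counts were high enough for testing in 83 members, and 2 members, DNAJB3 and DNAJC5B, had 0 counts in all 12 libraries.

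Polyadenylated RNA was sequenced from Ishikawa cells, an established line of human endometrial adenocarcinoma. All cells were kept for at least 4 days in phenol red-free medium with charcoal-treated serum, which is low in steroid hormones. One arm carried a control hairpin (shNC), and the other a hairpin (shARID1A) against ARID1A, which encodes a subunit of the chromatin remodeller SWI/SNF. Treatment lasted 8 h in either arm and was DMSO as vehicle, estradiol (E2) at 10 nM, or the same E2 dose together with fulvestrant at 100 nM. Fulvestrant is an estrogen receptor antagonist that also promotes loss of the receptor. That made 6 groups of 2 libraries, so 6 libraries per arm. The labels state neither how many hairpins or clones stand behind an arm nor whether libraries of the same group had separate cultures. Tests therefore measure spread between these libraries, which may be technical, and the hairpin cannot be told apart from other differences between the 2 cell populations.

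Chaperones bind unfolded protein and release it in cycles driven by ATP. HSP70 proteins are recruited by DNAJ partners, HSP90 matures signalling proteins, including steroid hormone receptors, together with FKBP4 and FKBP5, and small heat shock proteins hold clients without ATP. In the ER, HSP70 and HSP90 relatives work beside the lectins calnexin and calreticulin, which retain glycoproteins, and the disulfide isomerases. Heat shock factor 1 raises the cytosolic genes when unfolded protein accumulates, and the unfolded protein response, through ATF6, XBP1 and ATF4, raises the ER genes.

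Promoter windows from 250 bases before to 50 bases after the start were taken from RefSeq (GRCh38.p14) for the 68 members that matched by symbol, and were searched on both strands. The ER stress element, which consists of CCAAT, 9 bases of any kind and CCACG, occurred in 27 of 35116 promoters in the table (0.0769%) and in 3 of the members (4.41%), CALR, CANX and HSP90B1. The letters TGACGTGG, the core of the unfolded protein response element, occurred in 256 promoters (0.729%) and in 2 members (2.94%), HYOU1 and DNAJC10. These 5 genes are printed because each holds 1 of these 2 motifs, HSP90B1 with 2 matches, and their RNA differed between the arms. Directions were opposite only among the 3 genes with the ER stress element, where CALR was higher. Both genes with TGACGTGG were lower. In the stretches from 250 to 51 bases before the start, written along the gene, capitals mark the match, and CCAAT in the CALR match and in the second HSP90B1 match reads ATTGG on this strand, as the DNAJC10 match is the reverse complement of TGACGTGG. The stretches are chr19:12938359-12938558 (plus strand) for CALR, chr5:179698679-179698878 (plus) for CANX, chr12:103930160-103930359 (plus) for HSP90B1, chr11:119057256-119057455 (minus) for HYOU1 and chr2:182716007-182716206 (plus) for DNAJC10.
CALR: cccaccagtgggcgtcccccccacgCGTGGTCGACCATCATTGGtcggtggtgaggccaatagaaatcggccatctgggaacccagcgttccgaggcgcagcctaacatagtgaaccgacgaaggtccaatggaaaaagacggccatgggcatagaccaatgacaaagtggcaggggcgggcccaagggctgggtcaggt
CANX: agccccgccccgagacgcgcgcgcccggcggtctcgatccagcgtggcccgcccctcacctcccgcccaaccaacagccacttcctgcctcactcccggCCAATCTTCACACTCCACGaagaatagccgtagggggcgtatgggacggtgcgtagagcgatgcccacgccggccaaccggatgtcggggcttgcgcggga
HSP90B1: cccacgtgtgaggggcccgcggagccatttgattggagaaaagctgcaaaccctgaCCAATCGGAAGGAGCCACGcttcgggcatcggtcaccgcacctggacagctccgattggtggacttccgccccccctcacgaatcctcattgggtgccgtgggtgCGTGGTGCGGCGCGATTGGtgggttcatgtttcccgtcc
HYOU1: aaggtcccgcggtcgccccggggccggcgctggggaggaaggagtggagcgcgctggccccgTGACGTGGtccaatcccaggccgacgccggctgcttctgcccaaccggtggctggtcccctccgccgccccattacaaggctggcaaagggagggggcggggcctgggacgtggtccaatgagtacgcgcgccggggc
DNAJC10: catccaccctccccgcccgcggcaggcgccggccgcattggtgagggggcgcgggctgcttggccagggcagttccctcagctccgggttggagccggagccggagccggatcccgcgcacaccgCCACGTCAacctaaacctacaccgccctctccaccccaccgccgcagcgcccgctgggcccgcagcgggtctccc

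The CALR RNA was higher in shARID1A libraries, and the RNAs of CANX, HSP90B1, HYOU1 and DNAJC10 were lower, with values given below. A heat shock element, searched as 3 triplets alternating between GAA and TTC with 2 bases of any kind between them, was found in 172 promoters (0.490%) and in 3 members, DNAJA1, DNAJB6 and HSPA8. Of these, DNAJB6 was higher in shARID1A and the other two did not pass the test. CCAAT alone, which the ER stress element contains, was found in 34.6% of all promoters and in 39.7% of the members. TGATGNAAT, a site read by ATF4 complexes, was found in 348 promoters (0.991%) and in 0 of the 68 members. A match is a run of letters and not evidence of binding.

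Libraries held 28810351 to 38657162 counts, and 3 counts, taken as the limit of detection, were 0.0776 to 0.104 CPM, which are counts put on 1 scale of library size. ARID1A, the targeted gene, stood at 113.2 to 126.8 CPM in shNC and 52.4 to 60.0 in shARID1A libraries, so all 12 libraries matched the hairpin in their labels. The treatment labels were not checked by a gene. The keratins KRT8 and KRT18, 2 of the 5 epithelial markers, were abundant, and the list summed to 877.9 to 943.2 CPM in shNC against 532.2 to 549.2 in shARID1A. EPCAM was at 0.374 to 2.04 CPM, and KRT19 and CDH1 did not exceed 5 and 21 counts. Stromal markers, mainly COL1A1, summed to 33.2 to 44.5 CPM against 48.8 to 52.0, and immune markers to 1.40 to 2.05 against 2.11 to 3.61, with CD3E and CD3D at 0 and PTPRC at 1 count at most. Endothelial markers stayed at or under 0.291 CPM. Mitochondrially encoded genes took 4.76% to 5.12% of counts in shNC and 5.50% to 5.72% in shARID1A. These shifts run with the arm, and their part in the results below was not tested.

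Across the mean of the 3 treatments, 17 of the 83 tested members were higher in shARID1A and 24 were lower (edgeR quasi-likelihood test, adjusted p under 0.05 over all 17020 genes). That is 20.5% higher and 28.9% lower, against 20.3% and 22.8% of all genes tested, and 49.4% against 43.1% for either direction, so the share called lay near that of all genes. The changes were small. The median size of the log2 difference was 0.13 for members and 0.21 for all genes, and the median difference was -0.02 for both. Called differences beyond 1.5-fold were limited to 4 members, DNAJC12, HSPA2, DNAJB13 and the pseudogene HSP90AA6P. The members together took 1.82% to 1.98% of all counts in shNC libraries and 1.69% to 1.77% in shARID1A libraries, ranges that do not overlap. These shares use unscaled counts, while the levels below use TMM-scaled library totals. That scaling moved mean ARID1A from 120.50 to 117.55 CPM in shNC and from 55.98 to 57.43 in shARID1A, which narrows such a gap. The lowest shNC share (replicate 1 with E2, 1.82%) and the highest shARID1A share (replicate 1 with DMSO, 1.77%) change order under that scaling. It moved ARID1A from 124.3 to 122.2 CPM in that shNC library and from 55.6 to 56.9 in that shARID1A library. The scaled shares of the arms therefore overlap. In bulk RNA, fewer cells of a kind and less RNA per cell cannot be told apart.

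**Figure D1:**
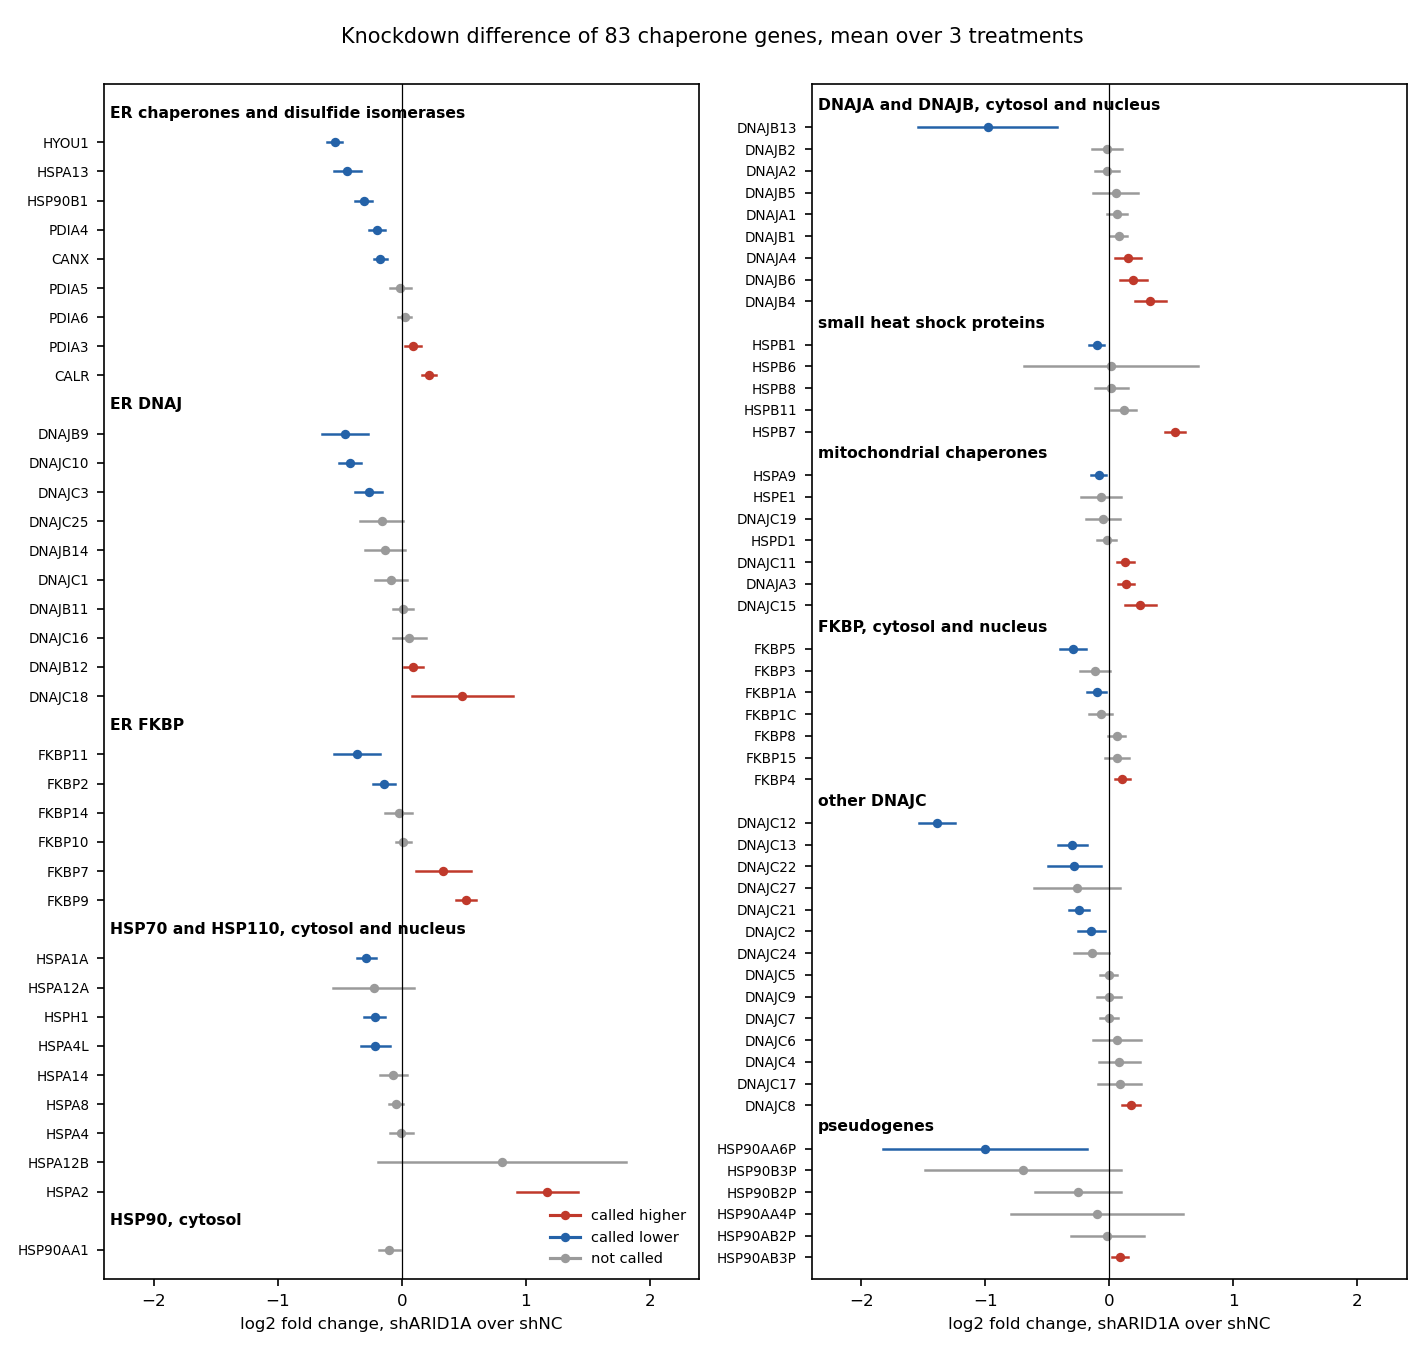
Log2 fold change of shARID1A over shNC, mean over DMSO, E2 and E2 plus fulvestrant, for the 83 tested chaperone genes by family; points are edgeR estimates, bars are 95% confidence intervals, and colour gives the call. Red and blue points occur within most families, with HYOU1 (-0.54) and CALR (0.22) at opposite ends of the ER chaperones.

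Among the families, the ER chaperones and disulfide isomerases held the largest share of lower members. Of 9 tested, 5 were lower, 2 were higher and 2 did not pass the test, with a median log2 difference of -0.17. Over all genes tested 22.8% were lower and 20.3% higher, the share to set beside each family count below. The families are small, so single genes weigh heavily in these counts. HYOU1, an HSP110 relative that recharges the ER HSP70 (hg19 chr11:118917882-118927913), ranged over 503.7, 533.2 and 563.9 CPM (lowest, median, highest; CPM here are scaled by TMM) in the 6 shNC libraries. In the 6 shARID1A libraries it ranged over 349.7, 367.0 and 382.5 CPM. Every shARID1A library was below every shNC library, and the log2 difference was -0.54 (SE 0.03, adjusted p = 1.28e-15, edgeR). By treatment it was -0.58 (DMSO), -0.52 (E2) and -0.52 (E2 plus fulvestrant), each of them called.

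HSP90B1, the ER form of HSP90 (chr12:104323885-104347423), was at 711.9, 771.4 and 852.4 CPM in shNC and 548.4, 617.6 and 681.4 CPM in shARID1A. The arms did not overlap, and the log2 difference was -0.31 (SE 0.03, adjusted p = 1.04e-08, edgeR). PDIA4, a disulfide isomerase (chr7:148701291-148725560), was at 208.4, 213.6 and 220.1 CPM in shNC and 182.1, 186.2 and 191.5 CPM in shARID1A, again without overlap. Its log2 difference was -0.20 (SE 0.03, adjusted p = 8.92e-06). HSPA13, an HSP70-like ATPase of the ER (chr21:15745859-15755805), fell from a range of 51.9 to 64.6 CPM (median 56.0) to 39.0 to 45.7 (median 42.3), a log2 difference of -0.44 (SE 0.05, adjusted p = 4.99e-08, edgeR).

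The paired lectins moved in opposite directions. Calreticulin, CALR (chr19:13049392-13055217), the soluble lectin, was at 1114, 1150 and 1216 CPM in shNC and 1310, 1333 and 1385 CPM in shARID1A, a log2 difference of 0.22 (SE 0.03, adjusted p = 6.88e-08, edgeR). Calnexin, CANX (chr5:179125428-179156650), its membrane-bound relative, was at 1190, 1230 and 1348 CPM in shNC and 1046, 1109 and 1154 CPM in shARID1A, a log2 difference of -0.17 (SE 0.03, adjusted p = 3.57e-06). Neither gene overlapped between arms. CALR was higher in each treatment (0.17 in DMSO, 0.23 with E2, 0.26 with E2 and fulvestrant), and CANX was lower with E2 (-0.19) and E2 plus fulvestrant (-0.21) but did not pass in DMSO (-0.12, adjusted p = 0.0786, edgeR).

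PDIA3, the disulfide isomerase that works with both lectins, was at 213.8, 220.4 and 227.8 CPM in shNC and 228, 234.1 and 238.2 CPM in shARID1A (log2 difference 0.09, SE 0.03, adjusted p = 0.0250, edgeR). This call was lost without replicate 1 of shNC under any treatment (adjusted p = 0.0596 for DMSO, 0.054 for E2 and 0.0646 for E2 plus fulvestrant), without replicate 1 of shARID1A with DMSO (0.089) and without replicate 2 of shARID1A with E2 (0.0529). PDIA6 differed by 0.02 (adjusted p = 0.551) and PDIA5 by -0.01, and neither passed the test.

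The ratio of 2 genes within a library does not depend on how library totals are scaled. It uses the same counts as the fit and is not separate evidence. The first 3 pairs set a gene called higher over a gene called lower, so a shift between arms follows from those calls. The count of CALR over that of CANX was 0.830 to 1.00 (median 0.926) in shNC and 1.15 to 1.32 (median 1.22) in shARID1A. PDIA3 over PDIA4 was 0.980 to 1.07 in shNC and 1.19 to 1.31 in shARID1A. CALR over HSP90B1 was 1.31 to 1.71 (median 1.49) in shNC and 1.94 to 2.53 (median 2.17) in shARID1A. In each of these ratios the 2 arms lie apart. HYOU1 over HSP90B1, 2 genes that were both lower, ran from 0.591 to 0.792 and from 0.513 to 0.697, which overlap. HSPD1 over HSPA9 ran from 0.532 to 0.606 in shNC and from 0.568 to 0.622 in shARID1A, which overlap as well. The ratios are a description with no test of their own.

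**Figure D2:**
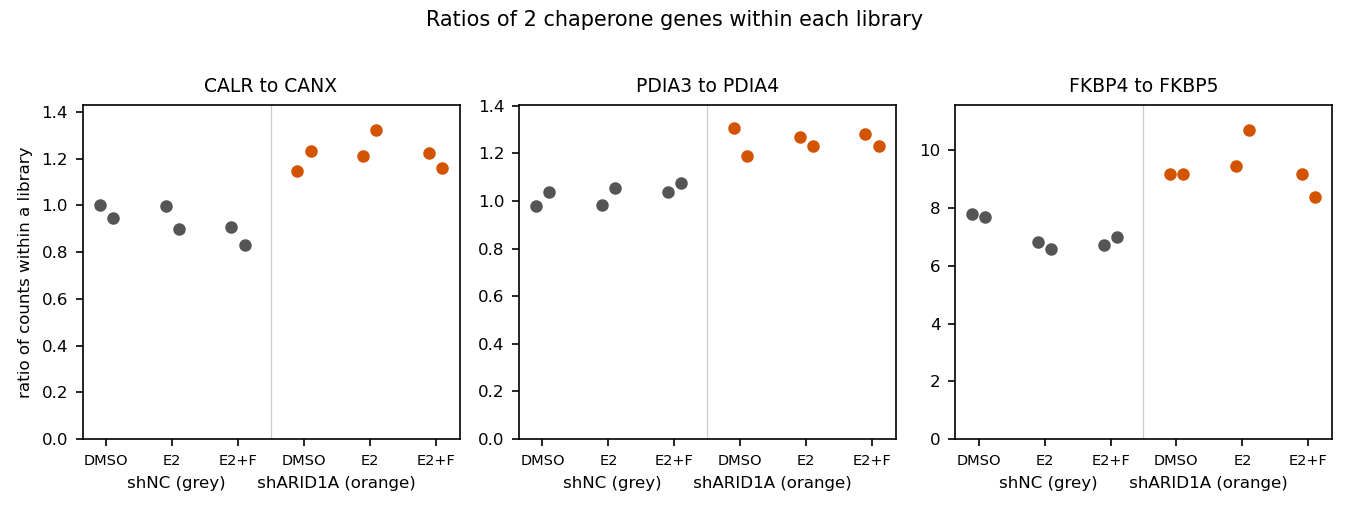
Ratio of the counts of 2 chaperone genes within each library, by arm and treatment; each point is 1 library and the axis starts at 0. For CALR to CANX all 6 shARID1A libraries lie between 1.15 and 1.32 and all 6 shNC libraries at or below 1.00.

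Among the 10 J-domain proteins of the ER, 3 were lower, 2 were higher and 5 did not pass the test. DNAJC10, a disulfide reductase that unlinks misfolded proteins (chr2:183581023-183642572), was at 119.5, 129.8 and 142.6 CPM in shNC and 86.8, 97.7 and 106.2 CPM in shARID1A, with no overlap. The log2 difference was -0.41 (SE 0.04, adjusted p = 1.75e-09, edgeR) and was called in every treatment (-0.37, -0.41 and -0.46). DNAJB9, which delivers misfolded proteins for degradation (chr7:108210311-108215204), was at 10.2 to 14.3 CPM (median 11.0) in shNC and 7.76 to 8.95 (median 8.29) in shARID1A, a log2 difference of -0.46 (SE 0.09, adjusted p = 0.00012). DNAJC3, an ER cochaperone also known to inhibit the kinase PERK, ran from 38.3 to 47.8 CPM and from 31.9 to 41.1, so its arms overlapped (log2 difference -0.26, SE 0.05, adjusted p = 0.000118, edgeR). DNAJB11, a cochaperone of the ER HSP70, differed by 0.01 (adjusted p = 0.863).

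The 2 higher ER J-domain proteins were DNAJB12 and DNAJC18. DNAJB12, a membrane protein, differed by 0.09. DNAJC18 was at 1.94 and 1.75 CPM in shNC with DMSO, 1.66 and 1.68 under E2, and 0.940 and 0.513 under E2 plus fulvestrant. Its shARID1A libraries were at 1.98 and 1.99, 2.11 and 1.35, and 1.89 and 1.82 CPM. The knockdown difference of DNAJC18 was 0.10 in DMSO, 0.02 with E2 and 1.34 with E2 plus fulvestrant, where only the shNC libraries were low. Its mean difference of 0.49 (SE 0.20, adjusted p = 0.0480, edgeR) did not pass with DESeq2 (adjusted p = 0.0579), nor when any of 10 single libraries was left out, all but replicate 2 of shARID1A with E2 and replicate 1 of shNC with E2 plus fulvestrant.

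Of the 6 FKBP prolyl isomerases of the ER, 2 were higher, 2 were lower and 2 did not pass the test. FKBP9 (chr7:32997037-33046456) was at 84.3, 86.4 and 96.9 CPM in shNC and 122.6, 127.3 and 129.5 CPM in shARID1A, without overlap. Its log2 difference was 0.52 (SE 0.04, adjusted p = 2.43e-12, edgeR), and the values per treatment were 0.52, 0.48 and 0.55. FKBP7 was also higher, by 0.34 (SE 0.11, adjusted p = 0.0119), with ranges of 4.23 to 5.30 and 5.08 to 6.64 CPM that overlap. FKBP11, an isomerase abundant in secretory cells, was lower by -0.36 on the log2 scale (SE 0.09, adjusted p = 0.00155), with ranges of 10.5 to 14.2 and 7.93 to 11.2 CPM, and FKBP2 by -0.14 (adjusted p = 0.00834).

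**Figure D3:**
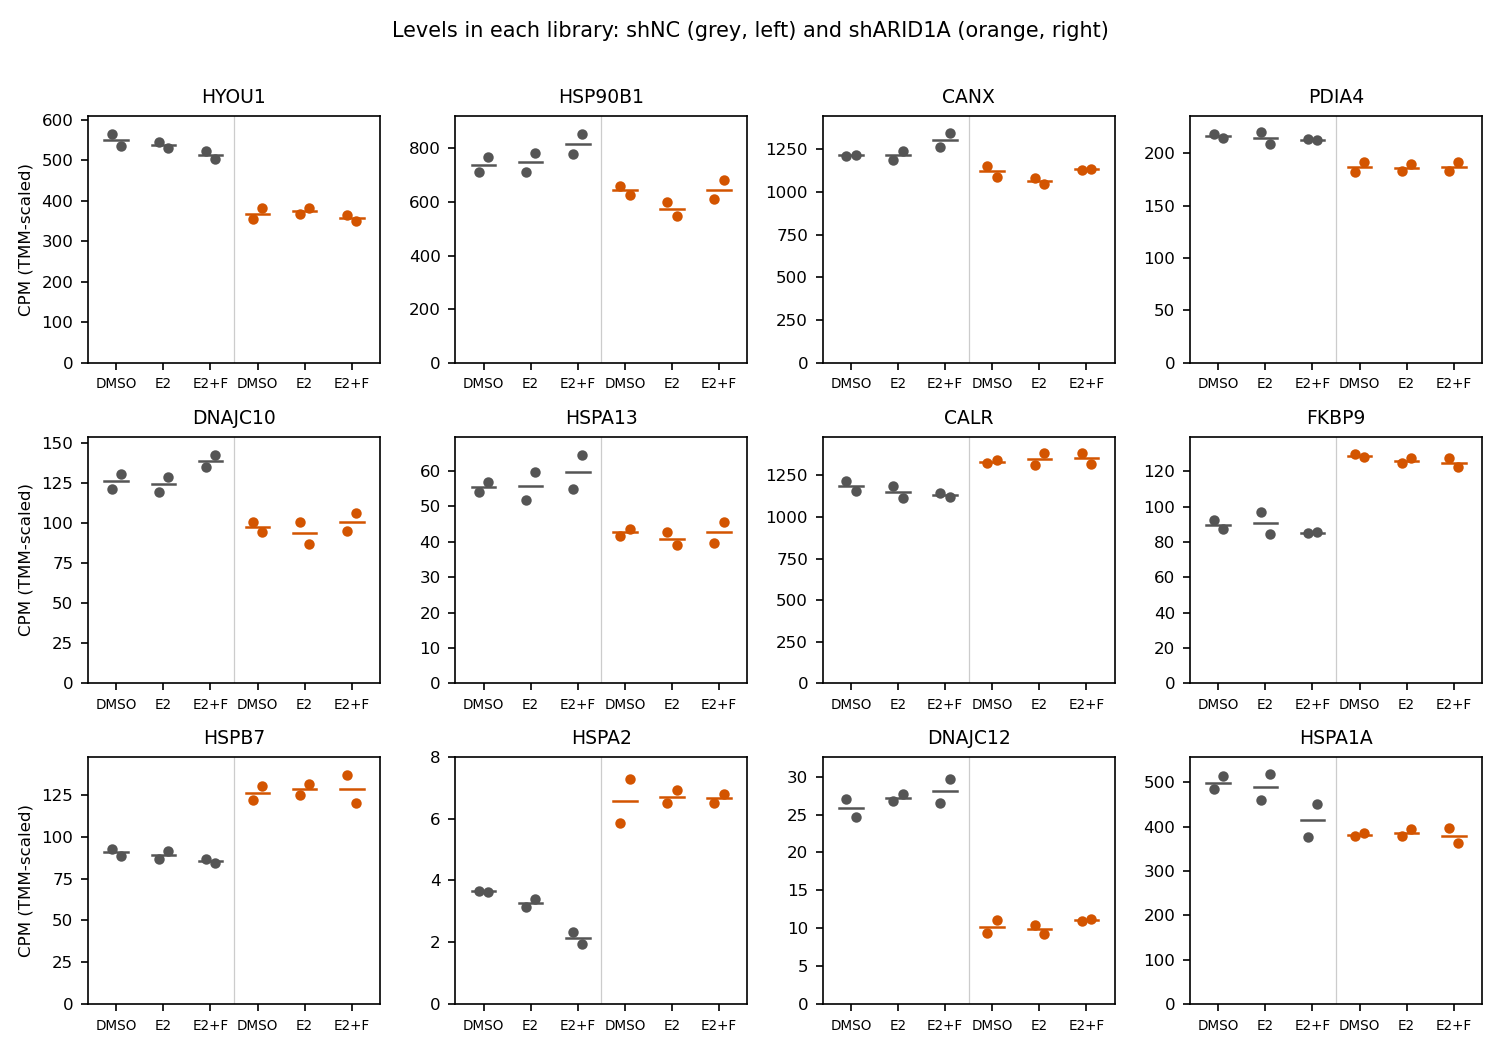
CPM (TMM-scaled) of 12 chaperone genes in each of the 12 libraries, shNC in grey and shARID1A in orange, by treatment; points are libraries, horizontal lines are group means, and each axis starts at 0. The arms lie apart for 11 of the 12 genes, and for HSPA1A they overlap at replicate 1 of shNC with E2 plus fulvestrant (376.9 CPM). The genes shown are a selection, so this count describes the panels only. Of all genes tested, 22% lay apart in either direction.

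In the cytosol and nucleus, 1 of 9 HSP70 and HSP110 genes was higher, 3 were lower and 5 did not pass the test. HSPA8, the constitutive HSP70 and the most abundant member per length (1241 ± 62.9 RPKM, SD, n = 6 shNC libraries, where RPKM is CPM per kilobase of counted exon), differed by -0.05 on the log2 scale (SE 0.03, adjusted p = 0.171, edgeR). It passed without replicate 1 of shNC with E2 (adjusted p = 0.0374) or with E2 plus fulvestrant (adjusted p = 0.0451). HSPA1A, the heat-inducible HSP70 (chr6:31783320-31785723), was at 376.9, 472.7 and 517.8 CPM in shNC and 362.5, 382.1 and 395.9 CPM in shARID1A. Its arms overlapped through replicate 1 of shNC with E2 plus fulvestrant (376.9 CPM), the only shNC library within the shARID1A range, and the mean log2 difference was -0.28 (SE 0.04, adjusted p = 2.69e-07). HSPA1A was lower in DMSO (-0.39) and with E2 (-0.34), and stood at -0.13 with E2 plus fulvestrant (adjusted p = 0.172, edgeR). HSPA1A lies beside a near-identical gene copy, so its counts are uncertain.

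HSPH1, a cytosolic HSP110 that recharges HSP70, was at 217.9, 234.1 and 275.2 CPM in shNC and 178.7, 207.7 and 227.3 CPM in shARID1A, a log2 difference of -0.22 (SE 0.04, adjusted p = 6.19e-05, edgeR). The arms of HSPH1 overlapped. HSPA2, an HSP70 known for its role in male germ cells (counted over chr14:65007459-65008293), was the only higher member of this family. Its shNC libraries read 3.67 and 3.64 CPM in DMSO, 3.13 and 3.39 under E2, and 2.32 and 1.96 under E2 plus fulvestrant. Its shARID1A libraries read 5.85 and 7.28, 6.52 and 6.92, and 6.52 and 6.82 CPM. Every shARID1A library was above every shNC library, and the log2 difference of HSPA2 was 1.17 (SE 0.12, adjusted p = 1.35e-09, edgeR). HSP90AA1, the inducible cytosolic HSP90, was at 974.3 to 1282 CPM in shNC and 914.2 to 1127 in shARID1A, and its log2 difference of -0.10 (SE 0.04, adjusted p = 0.0532) did not pass the test. HSP90AA1 passed when genes with low counts were kept (adjusted p = 0.000956, edgeR) and without any of 6 libraries, replicate 1 of the 3 shNC groups and of shARID1A with DMSO and with E2, and replicate 2 of shARID1A with E2 plus fulvestrant.

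Of the 5 small heat shock proteins tested, HSPB7 was higher, HSPB1 was lower and 3 did not pass the test. RefSeq now names HSPB11, 1 of these 3, IFT25, so its place in this family rests on the older symbol only. HSPB7, known from heart and muscle (chr1:16340523-16346089), was at 84.3, 87.9 and 93.1 CPM in shNC and 120.4, 127.7 and 137.0 CPM in shARID1A, a log2 difference of 0.53 (SE 0.04, adjusted p = 2.07e-12, edgeR) with no overlap. It was called under DMSO (0.47), under E2 (0.53) and under E2 plus fulvestrant (0.59). HSPB1, which binds unfolding proteins and actin, was far more abundant per length (368.4 ± 12.7 RPKM, SD, n = 6 shNC libraries, against 27.7 ± 1.01 for HSPB7). HSPB1 differed by only -0.10 (SE 0.03, adjusted p = 0.00378, edgeR), with ranges of 524 to 570.8 and 478.4 to 541.5 CPM that overlap.

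Mitochondrial chaperones differed little. Of the 7 members, 3 were higher, 1 was lower and 3 did not pass the test. The higher members were DNAJC15, a regulator of protein import (log2 difference 0.25, SE 0.06, adjusted p = 0.00113, edgeR), DNAJA3, the J-domain partner of matrix HSP70 (0.14), and DNAJC11, a protein of inner membrane organisation (0.13). The arms of all 3 lay apart, DNAJC15 for instance at 19.4 to 21.7 CPM in shNC and 22.6 to 25.4 in shARID1A. HSPA9, the matrix HSP70, was lower by -0.08 on the log2 scale (adjusted p = 0.0222), a call that was lost without replicate 2 of any shNC group, replicate 2 of shARID1A with DMSO or with E2, or replicate 1 of shARID1A with E2 plus fulvestrant (adjusted p from 0.0571 to 0.0954). HSPD1 and HSPE1, which form the matrix chaperonin, differed by -0.02 (adjusted p = 0.699) and -0.07 (adjusted p = 0.53, edgeR). Pseudogene copies took 13.6% to 15.3% of the counts of HSPD1 and its copies, and HSPE1 shares 10.9% of its exon bases with a readthrough gene, so both levels are uncertain.

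Of the 9 cytosolic DNAJA and DNAJB genes, 3 were higher, 1 was lower and 5 did not pass the test. DNAJB4, a partner of HSP70, was at 18.9, 21.2 and 26.0 CPM in shNC and 25.4, 27.0 and 30.4 CPM in shARID1A (log2 difference 0.33, SE 0.06, adjusted p = 3.94e-05, edgeR). DNAJB6, which suppresses aggregation of polyglutamine proteins, was higher by 0.19 (adjusted p = 0.0034) and DNAJA4 by 0.15. DNAJB1 and DNAJA1, the main partners of HSP70 in the cytosol, differed by 0.08 (adjusted p = 0.0709) and 0.06 (adjusted p = 0.219). DNAJB1 passed with DESeq2 (adjusted p = 0.0343) and with edgeR under relative log size factors (adjusted p = 0.0422) or without replicate 2 of shNC with E2 plus fulvestrant (adjusted p = 0.0167). DNAJB13, known from motile cilia and sperm, was lower at 0.304 to 0.995 CPM against 0.925 to 1.41 (log2 difference -0.98, SE 0.28, adjusted p = 0.0042). Its mean reached 1 CPM in shNC only, and 28.3% of its exon bases overlap a gene on the opposite strand, whose reads cannot be told apart.

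Among the other DNAJC genes, 5 of 14 were lower, 1 was higher and 8 did not pass the test. DNAJC12, a cochaperone of the aromatic amino acid hydroxylases (chr10:69556840-69597924), had the largest called difference of all members. It was at 24.7, 26.9 and 29.7 CPM in shNC and 9.30, 10.7 and 11.2 CPM in shARID1A, far apart, with a log2 difference of -1.39 (SE 0.07, adjusted p = 1.13e-16, edgeR). By treatment, in the order above, the values were -1.35, -1.47 and -1.34. DNAJC13, an endosomal protein, was lower by -0.30 (SE 0.06, adjusted p = 9.26e-05) with arms that overlapped. DNAJC21, a ribosome biogenesis factor, was lower by -0.25 and DNAJC2, a ribosome-bound chaperone, by -0.14. DNAJC22 was lower by -0.28. DNAJC8, a protein of the spliceosome, was higher at 131.5 to 149.6 CPM against 116.7 to 128.9 (log2 difference 0.18, SE 0.04, adjusted p = 0.000188, edgeR), and 13.4% of its exon bases overlap a gene on the opposite strand.

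The steroid receptor cochaperones FKBP4 and FKBP5 went opposite ways. FKBP4, which favours transport of the hormone-bound receptor, was at 273.7, 288.4 and 302.9 CPM in shNC and 301.9, 308.7 and 322.2 CPM in shARID1A, a log2 difference of 0.11 (SE 0.03, adjusted p = 0.00567, edgeR) with arms that just overlapped. FKBP5, which lowers hormone affinity and is a known target of steroid receptors, was at 38.4, 40.7 and 43.6 CPM in shNC and 30.1, 33.4 and 36.3 CPM in shARID1A, a log2 difference of -0.29 (SE 0.05, adjusted p = 1.77e-05). The arms of FKBP5 lay apart. The count ratio of FKBP4 to FKBP5 was 6.57 to 7.80 (median 6.91) in shNC and 8.40 to 10.7 (median 9.17) in shARID1A. Of the 7 cytosolic and nuclear FKBP genes tested, 1 was higher, 2 were lower, with FKBP1A at -0.10 (adjusted p = 0.0323, edgeR), and 4 did not pass the test.

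Of 6 pseudogenes tested, HSP90AB3P was higher (0.09, adjusted p = 0.0217, edgeR), HSP90AA6P was lower (adjusted p = 0.0442) and 4 did not pass. HSP90AB3P stood at 116.9 ± 3.91 RPKM (SD, n = 6 shNC libraries), rank 15 of all members per length, and reads of a parent gene assigned to it cannot be told apart from its own. HSP90AA6P stayed between 0.172 and 0.674 CPM.

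Summed per length within families, the ER J-domain genes ran from 124.2 to 142.0 RPKM in shNC and 111.5 to 118.0 in shARID1A, and the ER chaperones from 1536 to 1599 and from 1466 to 1514. The other DNAJC genes summed to 212.1 to 221.9 and 195.8 to 202.4 RPKM. All 3 sums were lower in every shARID1A library than in every shNC library. The fall in the other DNAJC sum (means 217.2 and 200.5 RPKM) mainly follows 1 gene, DNAJC12 (means 26.5 and 10.1 RPKM). The HSP70 and HSP110 sum, most of it HSPA8, ran from 1500.4 to 1697 RPKM and from 1482 to 1567, and overlapped. The sum of the cytosolic DNAJA and DNAJB genes also overlapped, at 261.9 to 294.1 and 278.1 to 297.3 RPKM. These sums were not tested.

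Counted over all members, the 6 libraries of an arm lay wholly above those of the other arm in shARID1A for 9 members (10.8%, against 11.4% of all genes tested) and wholly below for 10 (against 10.6%), while 22% of all genes were apart in either direction. The former were DNAJC11, HSPB7, DNAJC8, FKBP9, DNAJC15, HSPA2, PDIA3, DNAJA3 and CALR. The latter were DNAJC10, DNAJC21, CANX, FKBP5, DNAJB9, PDIA4, DNAJC12, HYOU1, HSP90B1 and HSPA13. Members of the ER stood on both sides, with CALR, PDIA3 and FKBP9 among the former.

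Within single treatments, 9 members were higher and 9 lower in DMSO (background 9.7% and 9.5% of all genes), 8 and 17 with E2 (13.4% and 13.8%), and 6 and 13 with E2 plus fulvestrant (11.4% and 12.8%). In either direction that is 21.7% of members against 19.2% of all genes, 30.1% against 27.2%, and 22.9% against 24.2%. Called the same way in all 3 treatments were HSPB7, FKBP9, HSPA2 and CALR as higher (4.82% of members, 6.76% of all genes) and DNAJC10, PDIA4, DNAJC12, HYOU1, HSP90B1 and HSPA13 as lower (7.23%, against 6.5%). These counts depend on single libraries, since each group holds 2. In DMSO, the number higher was 5 without replicate 1 of shNC, 4 without replicate 2 of shNC, and 5 when either shARID1A replicate was left out, and 5 were lower without replicate 1 of shARID1A. Under E2, the number higher was 5 when either shNC replicate was left out and 4 without replicate 2 of shARID1A, and 11 were lower without replicate 2 of shNC. Under E2 plus fulvestrant, 5 were lower without replicate 2 of shNC, 8 were lower without replicate 1 of shARID1A, and DESeq2 called 11 members higher.

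Genes that work with the chaperones were listed by role, with calls for the mean of the 3 treatments. In that mean 20.3% of all genes tested were higher and 22.8% lower, the share to set beside each list below. Of 12 regulators of the unfolded protein response, 6 were lower, 2 were higher and 4 did not pass the test. ERN1, the sensor IRE1, was lower, with a median of 2.78 CPM against 6.17 and no overlap (log2 difference -1.15, adjusted p = 2.49e-08, edgeR). PPP1R15A, which restarts translation after stress, was lower by -0.80 (adjusted p = 3.8e-11) and TRIB3, a pseudokinase induced by ATF4, by -0.66 (adjusted p = 2.88e-15). XBP1, whose RNA IRE1 splices, was higher at 298.3 to 307.2 CPM against 246.4 to 265.5 (0.24, adjusted p = 1.55e-07), and MBTPS1, the protease that frees ATF6, was higher by 0.17. Spliced and unspliced XBP1 were not separated in these counts.

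Of 26 ER folding, oxidation and degradation partners, 9 were higher, 8 were lower and 9 did not pass the test. P4HB, the founding disulfide isomerase, was higher at 1535 to 1686 CPM against 1196 to 1353 (log2 difference 0.34, adjusted p = 1.39e-11, edgeR). ERP29, an ER folding factor, was higher by 0.32 and SIL1, an exchange factor of ER HSP70, by 0.30. EDEM1, which sends glycoproteins to degradation, was lower by -0.55 (adjusted p = 2.82e-07), SEC63, the J-domain protein of the translocon, by -0.36, and CALU, a calcium-binding protein, by -0.27 (adjusted p = 5.62e-10, edgeR).

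Of 24 heat shock factors and cytosolic cochaperones, 10 were higher, 5 were lower and 9 did not pass the test. BAG1, an exchange factor of HSP70, was higher at 283.3 to 312.9 CPM against 209.4 to 223.9 (log2 difference 0.48, adjusted p = 1.01e-13, edgeR). AHSA1, which stimulates the HSP90 ATPase, was higher by 0.22 (adjusted p = 7.58e-07) and HSBP1, a binder of heat shock factor 1, by 0.30. Lower members were led by SUGT1, an HSP90 cochaperone (-0.22), CRYAB, a small heat shock protein (-0.45), and BAG4 (-0.34, adjusted p = 0.0111). Of 14 subunits of the CCT chaperonin and prefoldin, 4 were higher and 3 lower, with CCT7 at 0.19 and CCT8 at -0.13, and PFDN5 at 0.19 and PFDN4 at -0.26. Of 13 mitochondrial folding and protease partners, 5 were higher and 4 lower, with CLPB, a disaggregase, at 0.21 and GRPEL2, an exchange factor of matrix HSP70, at -0.36 (adjusted p = 4.24e-07, edgeR).

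E2 and fulvestrant moved none of the 83 members past the threshold. In each of 4 comparisons (E2 against DMSO, and E2 plus fulvestrant against E2, in each arm) edgeR and DESeq2 called 0 members, although DESeq2 gave 18 of them no adjusted p for fulvestrant in shARID1A. Few genes of any kind were called: 1 of 17020 (0.00588%) for E2 in shNC, 4 (0.0235%) for E2 in shARID1A (of these, 0.0176% of all genes higher and 0.00588% lower), and 1 (0.00588%) for fulvestrant in either arm. At an unadjusted p under 0.05 there were 2 members for E2 in shNC, 6 for E2 in shARID1A, 13 for fulvestrant in shNC (10 higher, 3 lower) and 6 for fulvestrant in shARID1A (all higher). The median 95% interval of a member reached 0.18 on the log2 scale to either side of its estimate in each of the 4 comparisons. Smaller differences were mostly not detectable. The interval is not adjusted for the 17020 genes tested, so larger differences could also fail to pass, as those of HSPA1A and HSPH1 did below. The E2 libraries of an arm serve in both comparisons of that arm.

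**Figure D4:**
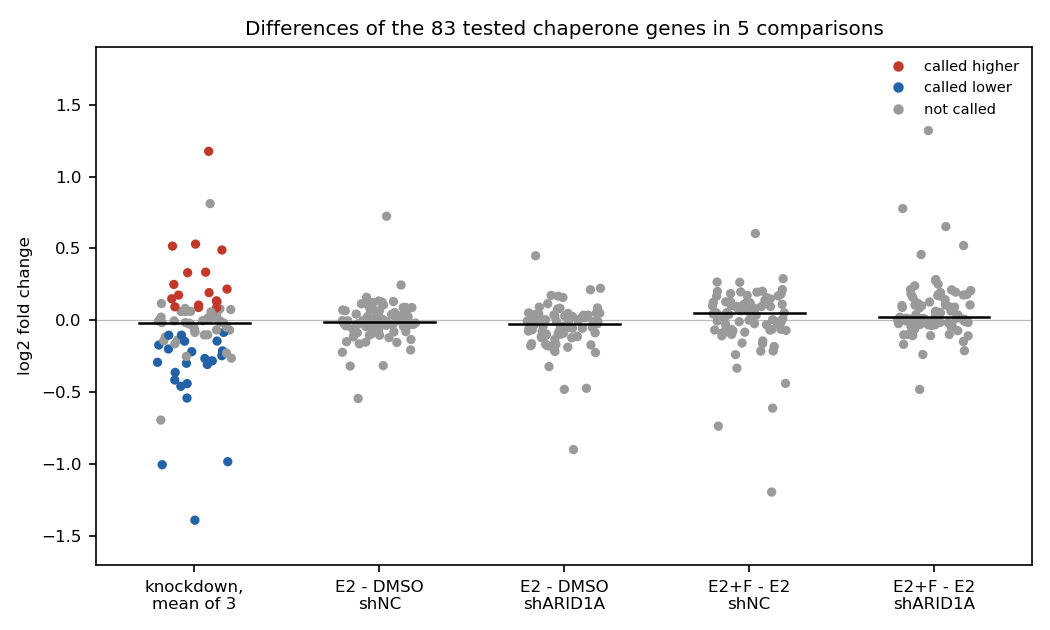
Log2 fold changes of the 83 tested chaperone genes for the mean knockdown difference and for E2 and fulvestrant in each arm; points are genes spread sideways for visibility, black lines are medians, and colour gives the call. Red and blue points appear in the knockdown column and not in the 4 treatment columns, whose medians lie between -0.03 and 0.05.

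HSPA1A in shNC had 1 of the smallest p-values for fulvestrant, without passing. Its libraries read 485.6 and 513.2 CPM in DMSO, 459.8 and 517.8 under E2, and 376.9 and 452.2 under E2 plus fulvestrant. The log2 difference of fulvestrant was -0.24 (95% interval -0.37 to -0.10, adjusted p = 0.55, edgeR). In shARID1A, HSPA1A read 379.4 and 384.7, 379.1 and 394.1, and 395.9 and 362.5 CPM, with no visible order. HSPA1A passed for fulvestrant in shNC when genes with low counts were kept (adjusted p = 0.0154) and without replicate 2 of shNC with E2 plus fulvestrant (log2 difference -0.38, adjusted p = 0.0404).

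HSPH1 in shARID1A stood at -0.22 for E2 (adjusted p = 0.645) and at 0.25 for fulvestrant (95% interval 0.10 to 0.40, adjusted p = 0.316, edgeR). It passed for fulvestrant when genes with low counts were kept (adjusted p = 0.0345). FKBP5, a known steroid receptor target, stood at 0.11 for E2 in shNC (95% interval -0.06 to 0.28) and at -0.10 in shARID1A. When the effects of E2 and of fulvestrant were compared between the arms, both tools called 0 members, against 5 genes (0.0294%) and 2 genes (0.0118%) of all tested. At an unadjusted p under 0.05 there were 3 and 2 members, and DESeq2 gave 13 members no adjusted p for the E2 effect. HSPA1A, HSPH1 and FKBP5 are named for the treatments after their values were seen, since no member was called.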

How the data were processed

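Polyadenylated RNA libraries (TruSeq mRNA kit, RNA extracted with TRIZOL) were made from 12 samples, per the labels' protocols. The authors deposited raw counts of reads per gene. Per the submitters' processing notes, Trim Galore, cutadapt, FastQC and Subread 2.0.0 were used, with hg19 as the build. Reads were counted by featureCounts 2.0.0 over exons, per the file headers, with no option for strand, read pairs or multiply aligned reads. Counted exons covered under 50% of the GENCODE v29 exon bases of the same gene in 27 of the 92 members (7.91% for HSPA2 and 36.1% for PDIA4), so RPKM levels of these genes are uncertain while comparisons between libraries use the same exons.

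The fit used edgeR 4.0.16 in R 4.3.3 (TMM scaling, filterByExpr by group, 1 mean per group over all 12 libraries, quasi-likelihood F-test), and p-values were adjusted by Benjamini-Hochberg over 17020 genes per comparison. SE is the log2 difference over the square root of F. The mean knockdown difference averages the 3 treatments. DESeq2 1.42.0, relative log (RLE) factors, no filter, no mitochondrially encoded genes, a replicate block and leaving out each library were the alternatives. The script was tested on simulated data. Squared differences between libraries of a group were on average 5.19 to 7.97 times those of counting error over 12461 genes, and none was a repeat of another. Limits of detection cover counting error only. Letters stand for zeros in the labelled fulvestrant dose, which was taken as 100 nM.

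Members, gene lists and tests were chosen with earlier results of these data known. Named genes were a core set of chaperones, the 10 higher and 10 lower members with the largest called difference and a mean of at least 1 CPM in at least 1 of the compared groups, and up to 3 genes each way per partner list. Other named genes were chosen after their values were seen. Chaperone genes outside the 92 and the partner lists are not analysed here. The 38 HSP symbols with endings of P plus digits were also left out, apart from the share of counts on the HSPD1 copies.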

Additional observations from a re-analysis of the deposited data

How the results depend on the processing

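Replicate numbers are shared by the groups, and same-numbered libraries deviated together in only some pairs of groups: over 10338 genes, 15 correlations ran from -0.22 to 0.28, with 7 over 0.1. The 3 pairs among shNC groups stood at 0.28, 0.17 and 0.16, and the 3 pairs of shNC groups with shARID1A under E2 and fulvestrant at 0.12 to 0.24, while shARID1A with E2 was negative against all 3 shNC groups, so the numbers were not used as pairs. With the replicate block, the members called higher and lower were 9 and 9 in DMSO, 8 and 18 with E2, 6 and 14 with E2 plus fulvestrant and 17 and 25 in the mean, the treatment comparisons had 0 calls, and HSP90AA1 passed (-0.10, adjusted p = 0.035, edgeR). Of 37 named genes, 36 kept their side of the threshold with RLE factors and with the block, 35 with DESeq2 and 35 with no filter. RLE factors shifted the median of all genes by 0.01 (log2) and leaving out mitochondrially encoded genes by 0.00. DESeq2 called 11 members higher with E2 plus fulvestrant, against 6. With no filter, 1 member was called for fulvestrant in shNC (HSPA1A) and 1 in shARID1A (HSPH1), and all-gene calls for E2 and fulvestrant rose from 1 to 12 and 1 to 19 in shNC, from 4 to 37 and 1 to 41 in shARID1A, and from 5 to 41 and 2 to 9 for the differences between arms. DESeq2 called 18 genes for fulvestrant in shARID1A and 16 for the difference in E2. Over the 12 single-library omissions, members called higher and lower ran from 4 to 9 and 5 to 10 in DMSO, 4 to 8 and 11 to 18 with E2, 5 to 8 and 5 to 14 with E2 plus fulvestrant, and 13 to 17 and 20 to 25 in the mean. Calls for fulvestrant in shNC ran from 0 to 1, and the other treatment comparisons stayed at 0. All-gene calls ran from 2005 to 3348 in DMSO, 2748 to 4651 with E2 and 2310 to 4181 with E2 plus fulvestrant. Fewer libraries entered these fits, and the cause of other changes was not tested. Among uncalled genes the sign turned for DNAJB11 (-0.00683 to 0.0251, negative without replicate 1 of shNC with DMSO or with E2) and HSPD1 (-0.0514 to 0.0149, positive without replicate 2 of shNC under any treatment). DNAJC18 did not pass with no filter (adjusted p = 0.0648).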
